A study of Drosophila melanogaster with 16 samples.

Results

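The GATA family of *Drosophila* was taken as the 5 genes *serpent* (*srp*), *GATAe*, *pannier* (*pnr*), *grain* (*grn*) and *GATAd*, chosen by gene symbol and matched to the FBgn identifiers of the deposited tables. All 5 were found among the 13754 genes of each of the 2 tables. All 5 also passed the filter on low values, a mean normalized count of at least 10, which left 10212 genes in one table and 10369 in the other.

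GATA proteins bind DNA through a zinc finger that recognises the short sequence for which the family is named, and several carry another finger to which co-factors such as U-shaped (Ush) dock. *srp* is required in the embryo for blood cells, the fat body and the midgut endoderm, and *GATAe* acts downstream of *srp* in the endoderm, where it keeps midgut genes active. *pnr* patterns the dorsal ectoderm and the cardiac mesoderm, and *grn* is needed for the paths of motor axons and for the shape of the posterior spiracles. No embryonic role is described here for *GATAd*.

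The values come from RNA-seq of the poly(A) RNA of single embryos at stage 16, each embryo being a library of its own. One table sets 5 Asx0 embryos against 3 wild-type embryos, and the other sets 4 SceI48A embryos against 4 further wild-type embryos. Asx0 embryos carried 2 copies of a null allele of *Asx*, whose product is the partner of the deubiquitinase Calypso in PR-DUB, the complex that removes ubiquitin from histone H2A. They were the progeny without GFP of heterozygous parents, so maternal *Asx* product was still supplied. SceI48A embryos carried, in place of the normal *Sce* gene, a transgene for a form of the PRC1 ubiquitin ligase Sce that has lost its ligase activity, and their mothers' germ line also lacked normal *Sce*. Wild type was Oregon-R in both tables. The mutant stocks differ from Oregon-R by marker mutations and inserts as well. The third chromosome of the SceI48A stock is a marked one that carries *srp*, *GATAe*, *pnr* and *grn*. In both stocks the second chromosome, which carries *GATAd*, holds the mutant allele or the transgene with further inserts. Effects of the mutation and of the stock therefore cannot be told apart. The authors picked these embryos out of larger sets by principal component analysis of the RNA-seq data, checked against morphology, so that stages would match. The spread within groups is therefore that of embryos selected by their expression values. A wild-type embryo of one table is not in the other, the 2 tables were normalized separately, and levels are therefore compared within a table only. Nothing says that the embryos of a genotype came from separate crosses or collections, so p-values speak for these embryos only.

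The genes occupy 3 places in the genome (dm6). *srp* (FBgn0003507) lies on the plus strand of chromosome 3R from 15986152 to 16004085, followed by *GATAe* (FBgn0038391) from 16009105 to 16019133 and *pnr* (FBgn0003117) from 16026079 to 16041796 on the same strand. Only 5019 bp separate *srp* from *GATAe* and 6945 bp separate *GATAe* from *pnr*, so the 3 genes fill 55645 bp, and no other gene of the tables lies between them. *grn* (FBgn0001138) lies on the minus strand of the same arm from 8147368 to 8181444, at a distance of 7804707 bp from *srp*. *GATAd* (FBgn0032223) lies on the plus strand of 2L from 10333734 to 10339185. An annotated non-coding RNA, *lncRNA:CR44133*, overlaps *srp* on the same strand and is not in the tables, so reads from it could have been taken up by *srp*.

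All 5 GATA genes were transcribed at stage 16, at unequal levels. Each level is given here as the log2 normalized read count turned back to the linear scale, per kb of the longest annotated transcript. *GATAe* had the highest level of the family in 16 of 16 embryos, with 515 ± 42.6 in Asx0 embryos (SD, n = 5) and 542 ± 44.2 in their wild type (SD, n = 3), and 855 ± 97.0 in SceI48A embryos and 742 ± 27.0 in their wild type (SD, n = 4 each). *pnr* had the lowest in 16 of 16, with 48.4 ± 2.84 in Asx0 embryos and 49.6 ± 4.13 in their wild type, and 67.9 ± 8.04 in SceI48A embryos and 59.3 ± 10.4 in their wild type. By the authors' mean normalized count, *pnr* was at 188 in the Asx0 table and 253 in the SceI48A table, above 31.7% and 33.3% of the genes tested, whereas *srp* was at 1565 and 1932, *GATAe* at 1624 and 2475, *grn* at 1366 and 2025, and *GATAd* at 904 and 1342.

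The order of the 3 genes in the middle was not fixed. *srp* stood at 364 ± 18.2 per kb in Asx0 embryos and 328 ± 29.7 in their wild type, and *grn* at 308 ± 7.56 in Asx0 embryos and 374 ± 30.0 in their wild type, so that *srp* was above *grn* in all 5 mutants and below it in all 3 wild-type embryos. In the SceI48A table *grn* was above *srp* in 8 of 8 embryos, with *grn* at 504 ± 19.2 and *srp* at 456 ± 11.6 in the mutants, and *grn* at 485 ± 44.0 and *srp* at 409 ± 17.6 in wild type. *GATAd* was below *srp* and *grn* in 8 of 8 embryos of the Asx0 table and in 7 of 8 of the SceI48A table, where SceI48A replicate 1 was the exception. Where a gene's length was taken as all its exons joined, *grn* was above *srp* in all 16 embryos, and *GATAd* was above *srp* in 2 of 8 embryos of the Asx0 table and 6 of 8 of the SceI48A table. The order of *srp*, *grn* and *GATAd* thus depends on the length used, while the places of *GATAe* and *pnr* do not.

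**Figure D1:**
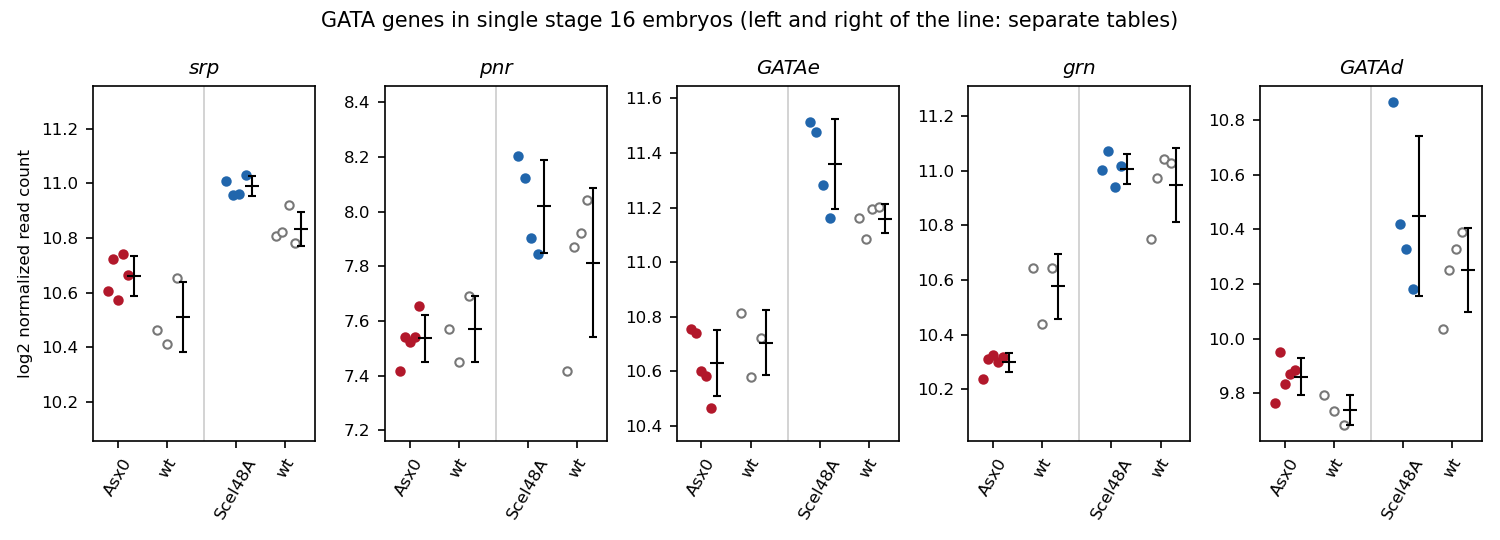
Log2 normalized read count of *srp*, *pnr*, *GATAe*, *grn* and *GATAd* in each embryo (1 point per embryo), with Asx0 embryos and their wild type left of the grey line and SceI48A embryos and their wild type right of it, which come from tables normalized separately. Black bars are the mean and SD of a group; each panel has a y axis of its own. The 5 Asx0 embryos sit between 10.24 and 10.32 for *grn*, below all 3 wild-type embryos.

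In the comparison of each mutant with its wild type, 1 of 5 genes changed in Asx0 embryos, *grn*, which fell. H2A ubiquitylation was not measured in these single embryos. No member was called higher in Asx0 embryos and none was called in either direction in SceI48A embryos (limma, adjusted p under 0.05). Over all genes tested, 11.3% were called in Asx0 embryos (5.19% higher and 6.15% lower) and 7.48% in SceI48A embryos (3.10% higher and 4.39% lower). At an unadjusted p under 0.05, 3 of 5 members passed in Asx0 embryos, where 26.7% of all genes did, and 2 of 5 in SceI48A embryos, where 24.7% did. No member differed by more than 2-fold, as was also true of nearly all genes, since only 0.441% and 0.405% were called with such a change. The median log2 fold change of mutant over wild type was -0.03 over the 5 genes in Asx0 embryos and 0.20 in SceI48A embryos, beside 0.00 over all genes tested in both. In whole embryos, fewer cells of a type and less RNA per cell cannot be told apart.

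*grn* had log2 values of 10.24, 10.31, 10.32, 10.30 and 10.32 in Asx0 embryos, against 10.65, 10.44 and 10.64 in wild type. All 5 mutant embryos were below all 3 wild-type embryos, with a gap of 0.12 between the groups, and the mutants lay closer together than the wild-type embryos did. The means were 10.30 ± 0.04 in Asx0 embryos (SD, n = 5) and 10.58 ± 0.12 in wild type (SD, n = 3), which is a log2 fold change of -0.28 with an SE of 0.06 (95% interval -0.41 to -0.15) and an adjusted p of 0.0111 from limma. This is a level 17.5% lower in the mutants, and 20.1% of all genes had groups that did not overlap in this table (10.3% lower). An exact two-sided permutation test over the 8 embryos gave p = 0.0357, the smallest that 56 splits allow, and 0.179 after adjustment over the 10 tests made on the family.

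In SceI48A embryos *grn* had values of 11.00, 11.07, 10.94 and 11.02, against 10.75, 10.97, 11.04 and 11.03 in wild type. The groups overlapped, with wild-type replicate 1 below all other embryos. The log2 fold change was 0.06 with a 95% interval of -0.12 to 0.23 (adjusted p = 0.693 from limma; exact two-sided permutation p = 0.571 over 4 and 4 embryos). Without wild-type replicate 1 it was -0.01. Whether the effects on *grn* differ between the 2 mutants was not tested, since the tables were normalized separately.

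The sexes of the embryos are not labelled, and they were unequal between the groups by 2 marker genes. *msl-2* is the dosage compensation gene that females repress and *Sxl* is the female switch gene. By the difference of their log2 values, which left a wide empty space around -3, 4 of 5 Asx0 embryos and 1 of 3 of their wild-type embryos lay above -3, as did 3 of 4 SceI48A embryos and 3 of 4 of their wild type. This split was chosen after the values were seen. Among embryos above -3, *grn* averaged 10.31 in the 4 Asx0 embryos and was 10.44 in the single wild-type embryo, a difference of -0.13. Among those below -3, *grn* was 10.24 in the single Asx0 embryo and averaged 10.65 in the 2 wild-type embryos, a difference of -0.41. *grn* was thus lower in the mutants on both sides, and with the marker difference as a covariate in limma its log2 fold change was -0.24 (adjusted p = 0.0580). No test was made within the classes, which held 4 against 1 and 1 against 2 embryos here.

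**Figure D2:**
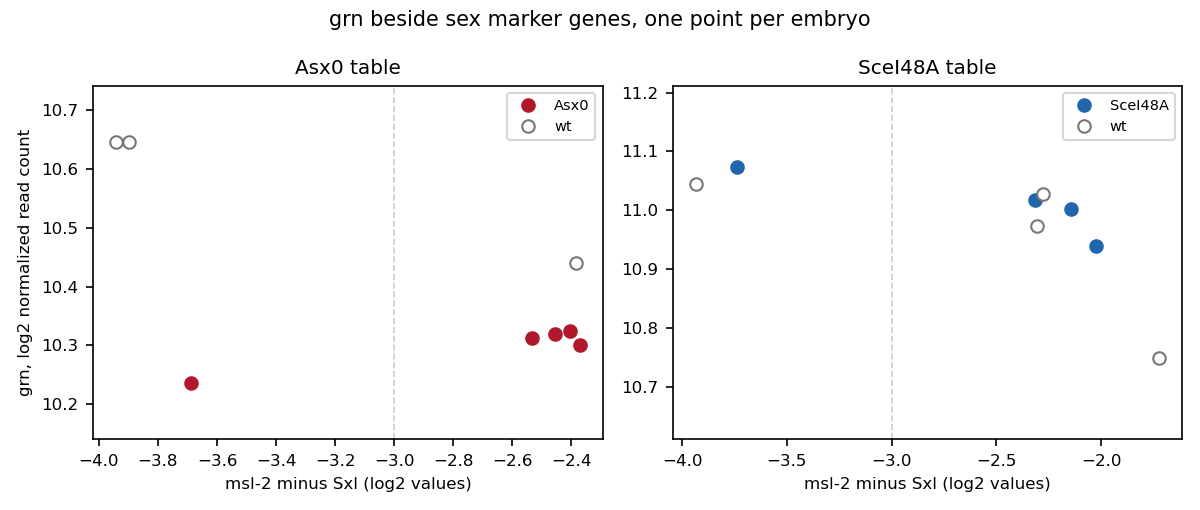
Log2 normalized read count of *grn* (y axis) against the difference of the log2 values of *msl-2* and *Sxl* (x axis), 1 point per embryo, in the Asx0 table (left) and the SceI48A table (right); the dashed line is at -3. In the Asx0 table the mutants lie below the wild type on both sides of the line, by 0.13 above -3 and by 0.41 below it, and in the SceI48A table the groups overlap.

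*srp* had log2 values of 10.60, 10.72, 10.57, 10.74 and 10.66 in Asx0 embryos, against 10.46, 10.41 and 10.65 in wild type. Of the mutants 3 were above all wild-type embryos, and the groups overlapped because wild-type replicate 3 was high. The log2 fold change was 0.15 (95% interval 0.01 to 0.30; adjusted p = 0.170 from limma; exact two-sided permutation p = 0.107). In SceI48A embryos the values were 11.01, 10.96, 10.96 and 11.03, against 10.81, 10.82, 10.92 and 10.78 in wild type. There the groups did not overlap, by a gap of 0.04, as 18.0% of all genes in that table did not (8.89% higher and 9.10% lower). The log2 fold change was 0.16 (95% interval 0.01 to 0.30) and did not pass the threshold over all genes (adjusted p = 0.167 from limma), although the exact two-sided permutation test gave its smallest possible p of 0.0286, or 0.179 after adjustment over 10 tests. In both mutants the interval ended at a level 1.23-fold that of wild type.

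*GATAe*, which follows *srp* in the endoderm, had log2 values of 10.76, 10.74, 10.60, 10.58 and 10.47 in Asx0 embryos, against 10.82, 10.58 and 10.72 in wild type. The groups were mixed, and the log2 fold change was -0.08 (95% interval -0.25 to 0.09; adjusted p = 0.583 from limma; exact two-sided permutation p = 0.464). In SceI48A embryos the values were 11.51, 11.48, 11.28 and 11.16, against 11.16, 11.08, 11.19 and 11.20 in wild type. Here 3 of 4 mutants were above every wild-type embryo and replicate 4 was within their range. The log2 fold change was 0.20 (95% interval 0.01 to 0.39; adjusted p = 0.180 from limma; exact two-sided permutation p = 0.0857).

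*pnr*, the member with the lowest mean count, had log2 values of 7.42, 7.54, 7.52, 7.54 and 7.66 in Asx0 embryos, against 7.57, 7.45 and 7.69 in wild type. The ranges nearly coincided, and the log2 fold change was -0.03 (95% interval -0.19 to 0.12; adjusted p = 0.802 from limma; exact two-sided permutation p = 0.679). In SceI48A embryos the values were 8.20, 8.12, 7.91 and 7.85, against 7.42, 7.87, 7.92 and 8.04 in wild type. The groups overlapped and both spread widely, with an SD of 0.17 in the mutants and 0.27 in wild type, where replicate 1 was the lowest. The log2 fold change was 0.21 (95% interval -0.08 to 0.49; adjusted p = 0.355 from limma; exact two-sided permutation p = 0.257), and 0.07 without wild-type replicate 1.

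*GATAd* had log2 values of 9.77, 9.95, 9.83, 9.87 and 9.89 in Asx0 embryos, against 9.79, 9.74 and 9.69 in wild type. Of the mutants 4 were above all wild-type embryos and replicate 1 was not. The log2 fold change was 0.12 (95% interval 0.00 to 0.24; adjusted p = 0.185 from limma; exact two-sided permutation p = 0.0714). In SceI48A embryos the values were 10.87, 10.42, 10.33 and 10.18, against 10.04, 10.25, 10.33 and 10.39 in wild type. SceI48A replicate 1 stood above all other embryos of the table, and the log2 fold change was 0.20 (95% interval -0.09 to 0.49; adjusted p = 0.387 from limma; exact two-sided permutation p = 0.343), or 0.06 without that embryo.

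**Figure D3:**
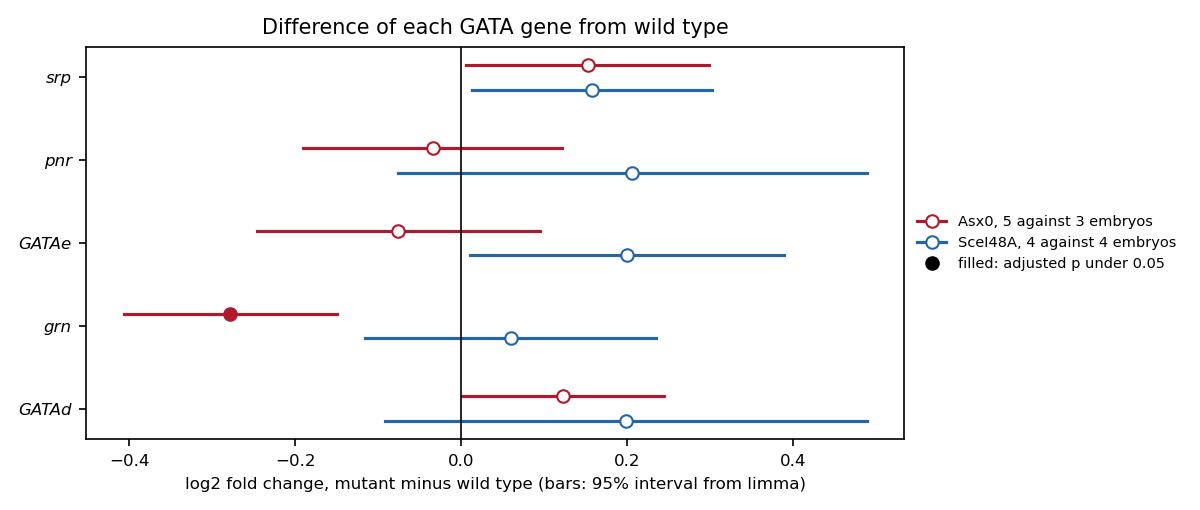
Log2 fold change of mutant over wild type for each GATA gene (x axis), from limma, with 95% intervals, for 5 Asx0 against 3 wild-type embryos (red) and 4 SceI48A against 4 wild-type embryos (blue). The filled point is *grn* in Asx0 embryos at -0.28, the only difference with an adjusted p under 0.05. In SceI48A embryos all 5 points lie above 0, between 0.06 and 0.21, none of them called. Without wild-type replicate 1 *grn* was at -0.01 and *pnr* at 0.07, and without SceI48A replicate 1 *GATAd* was at 0.06.

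Some members varied together among embryos of one group and others did not. After each embryo's value was set against the mean of its own group, Pearson's r over the 16 embryos was 0.81 for *pnr* and *grn* and 0.74 for *pnr* and *GATAd*, but 0.02 for *srp* and *GATAe*, 0.29 for *GATAe* and *pnr* and 0.26 for *srp* and *pnr*. Without the 2 embryos farthest from the median of *pnr*, the first of these was 0.62 and the next 0.70, and within the Asx0 table *pnr* and *GATAd* were at 0.24. The pairs of the 3R cluster differed by table as well, with *srp* and *pnr* at 0.69 in the Asx0 table and 0.05 in the SceI48A table, and *GATAe* and *pnr* at -0.25 and 0.55. These are descriptions over single embryos, with no adjustment for their sex, stage or library quality, and no p is given.

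The genes most like each member by the same measure were the 3 of highest r among the 10069 genes tested in both tables. They were picked as the highest of many over 16 embryos, so high values are expected from the choice itself. For *pnr* they were *CG33229* (0.95), *CG17162* (0.93) and *shi* (0.92), the gene of dynamin. For *grn* they were *sbb*, *Kdm5* and *Ptpmeg2* (each 0.92), of which *Kdm5* codes for a histone demethylase. For *GATAe* they were *Syx4* (0.90), *rux* (0.88) and the T-box gene *Doc3* (0.87). For *srp* they were *CG3163* (0.86), *AspRS-m* (0.83) and *dsx* (0.79), the sex differentiation gene. *CG3163* was at 0.96 within the Asx0 table and 0.50 within the SceI48A table, and *dsx* at 0.57 without the 2 embryos farthest from the median of *srp*. For *GATAd* they were *dnt*, *CG1943* (0.90 each) and *CG4393* (0.89), but within the Asx0 table alone these 3 were at 0.27, -0.05 and 0.33, so the likeness came from the SceI48A table.

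The genes around the members were counted next, to be read beside the 11.3% and 7.48% of all genes that were called in Asx0 and SceI48A embryos. Within 100 kb of *srp*, *GATAe* and *pnr*, 25 other genes were tested in Asx0 embryos, of which 3 rose and 1 fell. These were *IKKbeta*, a kinase of the immune response, at a log2 fold change of 0.21, *CG10185* at 0.22, the globin gene *glob1* at 0.21 and *blp* at -0.28 (adjusted p = 0.0381, 0.0255, 0.0144 and 0.0130 from limma). *IKKbeta* and *CG10185* were no longer called in 11 and 7 of 19 alternatives, among them the ones without each wild-type embryo in turn, *glob1* in 2 (0.19 without wild-type replicate 3) and *blp* in 1 (-0.25 without wild-type replicate 2). The nearest genes, *Hel89B* at 2701 bp before *srp* (0.04) and *Jhbp4* at 1702 bp after *pnr* (0.26), were not called. In SceI48A embryos 1 of 24 fell, *Jhbp5* at 2951 bp from *pnr* (-0.31, adjusted p = 0.00526 from limma), and *Hel89B* (0.12) and *Jhbp4* (-0.35) were not called.

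Near *grn* 3 of 19 genes fell in Asx0 embryos and none rose, *CG7878* (-0.41), *CG7900* (-0.40) and *CG7800* (-0.59), the last being the nearest gene on its side at 36513 bp (adjusted p = 0.0267, 0.00307 and 0.0296 from limma). *CG7900* was called in 19 of 19 alternatives, *CG7878* in 13 and *CG7800* in 10, with calls lost without mutant replicate 1, 2 or 5 (both genes), wild-type replicate 2 or 3 (both) or wild-type replicate 1 (*CG7800*). Without these embryos *CG7878* stayed between -0.40 and -0.37 and *CG7800* between -0.65 and -0.51. *Arl8*, the nearest gene on the other side at 17533 bp, was at 0.05. In SceI48A embryos 0 of 19 were called, with *Arl8* at -0.25 (adjusted p = 0.0537 from limma) and *CG7800* at 0.00. Around *GATAd*, in a gene-dense region, 2 of 68 rose and 4 fell in Asx0 embryos, and 0 of 71 rose and 2 fell in SceI48A embryos. In Asx0 embryos *mthl15* (0.36) and *CG4995* (0.28) rose and *l(2)SH0834* (-0.36), *SmB* (-0.40), *eEF1delta* (-0.31) and *REPTOR-BP* (-0.24) fell, of which only *mthl15* was called in 19 of 19 alternatives. The splicing factor gene *SmB* fell in SceI48A embryos too (-0.45, adjusted p = 0.00676 from limma), in 19 of 19 alternatives there. *SamDC* at 272 bp and *Cox10* at 605 bp from *GATAd* were not called in either mutant. One of those that fell in SceI48A embryos was *Hand*, at 38349 bp from *GATAd*, itself a gene of the heart and blood cells.

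**Figure D4:**
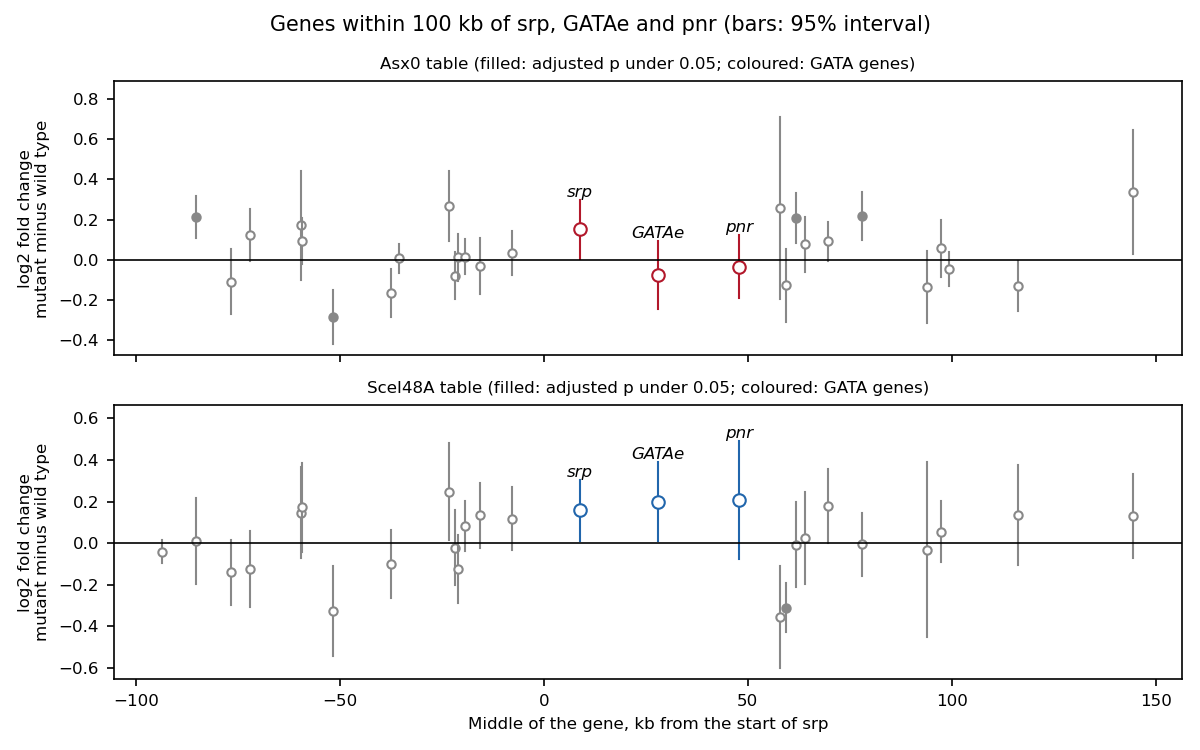
Log2 fold change of mutant over wild type (y axis, bars are 95% intervals from limma) of the genes within 100 kb of *srp*, *GATAe* and *pnr*, by the distance of the middle of the gene from the start of *srp* in kb (x axis), in the Asx0 table (top) and the SceI48A table (bottom). Coloured points are the 3 GATA genes and filled points have an adjusted p under 0.05, which 4 of 25 neighbours in the Asx0 table, 1 of 24 in the SceI48A table and none of the 3 GATA genes had.

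Genes known to act with the GATA proteins or downstream of them, or to mark the tissues where they act, were then counted from 10 lists, beside 3 lists of neuron, muscle and glia markers. Over all 13 lists, without the members, 1 of 109 distinct genes rose and 16 fell in Asx0 embryos, and 7 of 110 rose and 9 fell in SceI48A embryos, with a median of -0.02 and 0.04. Of the genes left out for low values, *Lsp1alpha* was listed at a mean of 0 in both tables and *eater* and *Jon25Bi* in the SceI48A table. The shares and medians are read beside the percentages and medians over all genes given above.

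Among 9 partner proteins, 1 fell in Asx0 embryos and 2 rose in SceI48A embryos, with medians of 0.05 and 0.09. In Asx0 embryos *tup*, the gene of an Islet-type LIM-homeodomain protein that binds Pnr, was at 9.37 ± 0.04 (SD, n = 5), against 9.67 ± 0.04 in wild type (SD, n = 3), or -0.30 as the log2 fold change (adjusted p = 0.00261 from limma). In SceI48A embryos *tou*, whose product works with Pnr and Chip in chromatin, rose by 0.51 (adjusted p = 0.0124 from limma) and *Ssdp*, of the Chip complexes, by 0.43 (adjusted p = 0.0214 from limma). *Ssdp* was no longer called without SceI48A replicate 2 or 4 or wild-type replicate 2, where it was between 0.37 and 0.42. The co-repressor gene *CtBP* was at 0.05 and 0.22 in the 2 comparisons, uncalled in both.

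The lists that belong to *grn* are those of motor neurons and posterior spiracles. Of 10 motor neuron genes 2 fell in Asx0 embryos and none was called in SceI48A embryos, with medians of -0.07 and 0.03. Those that fell were *tup* again and *exex*, the gene of an HB9-type homeodomain protein of motor neurons, at -0.34 (adjusted p = 0.00242 from limma). *Fas2*, the adhesion protein on their axons, was at 0.02 and 0.11. The mean log2 level over the list ran from 9.61 to 9.69 in Asx0 embryos, below the 9.70 to 9.76 of their wild type, and that of 6 neuron markers from 12.25 to 12.44, against 12.42 to 12.43. Of the neuron markers 1 of 6 fell in Asx0 embryos, *Appl* (-0.70, adjusted p = 0.000151 from limma), and none was called in SceI48A embryos. Of 8 posterior spiracle genes *wg* fell in Asx0 embryos (-0.29, adjusted p = 0.0293 from limma) and the polarity gene *crb* rose in SceI48A embryos (0.52, adjusted p = 0.0294 from limma), with medians of -0.08 and 0.13. Both calls were lost in some alternatives, *wg* in 6 of 19 (-0.28 to -0.25 without mutant replicate 1 or 5 or wild-type replicate 1 or 3) and *crb* in 5 of 19 (0.41 to 0.55 without mutant replicate 2 or wild-type replicate 1, 2 or 3). *ct*, a homeodomain gene of the spiracle chamber, was at -0.16 and 0.02. The part of these cell type markers in the fall of *grn* was not tested.

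For *pnr*, 1 of 16 dorsal vessel and dorsal mesoderm genes fell in each mutant, *tup* in Asx0 embryos and the heart gene *Hand* in SceI48A embryos (-0.27, adjusted p = 0.0486 from limma), with medians of -0.01 and 0.10. The call of *Hand* was at the threshold and was lost in 12 of 19 alternatives, without SceI48A replicate 2 or 4 and without each wild-type embryo among them (-0.28 to -0.24). Of 10 dorsal epidermis and amnioserosa genes 3 fell in Asx0 embryos and 1 rose in SceI48A embryos, with medians of -0.03 and 0.07. Those that fell were *Ance*, a peptidase gene of the amnioserosa, at -0.44, the Wnt ligand gene *wg* at -0.29 and the Iroquois gene *caup* at -0.23 (adjusted p = 0.00621, 0.0293 and 0.0179 from limma), of which *caup* was no longer called without wild-type replicate 1 (-0.22). The BMP ligand gene *dpp* rose in SceI48A embryos by 0.28 (adjusted p = 0.0295 from limma) and was called in 11 of 19 alternatives, but not without SceI48A replicate 2 or 4 or any wild-type embryo (0.26 to 0.29). *lbe*, *ac*, *sc* and *zen* were under the minimum in both tables.

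For *srp*, the blood and fat body lists held calls in both directions. Of 15 plasmatocyte genes 2 fell in Asx0 embryos, and of 14 in SceI48A embryos 3 fell and 1 rose, with medians of -0.01 and 0.01. The scavenger receptor gene *Sr-CI* was at -0.92 and -0.60 in the 2 comparisons and the phagocytosis receptor gene *NimC1* at -0.50 and -1.08 (adjusted p = 8.16e-05, 0.0280, 0.0169 and 0.00021 from limma). Also called in SceI48A embryos were *NimC4*, which rose (0.43, adjusted p = 0.0290 from limma), and *Pxn*, which fell (-0.46, adjusted p = 0.0486 from limma). They kept the call in 12 and 8 of 19 alternatives, and stood at -0.06 and -0.27, uncalled, in Asx0 embryos. *NimC1* in Asx0 embryos was no longer called without wild-type replicate 1 (-0.40) or with the sex covariate (-0.35, adjusted p = 0.0708 from limma), and *Sr-CI* in SceI48A embryos without mutant replicate 1 or 2 or wild-type replicate 1 or 4 (-0.58 to -0.50) or with the cuticle covariate. The collagen genes *Col4a1* and *vkg*, the most abundant of the list, were within 0.03 of wild type in both. Of 4 crystal cell genes tested in SceI48A embryos 2 fell and 0 rose (median -0.45), and 0 of 3 were called in Asx0 embryos (median 0.08). The prophenoloxidases *PPO2* and *PPO1* fell in SceI48A embryos by 0.93 and 0.89 on the log2 scale (adjusted p = 0.0167 and 0.0247 from limma) and stood at 0.17 and 0.08, uncalled, in Asx0 embryos. *lz* and *PPO3* were at 0.03 and -0.01, uncalled, in SceI48A embryos. Their mean counts there were only 25.7 and 11.8, a range in which fold changes are understated. *PPO1* was called in 13 of 19 alternatives, and was between -0.89 and -0.73 in the 5 leave-one-out fits that lost it, without mutant replicate 2 or 3 or wild-type replicate 1, 2 or 4. Of the fat body genes 1 of 10 rose and 2 fell in Asx0 embryos, and 2 of 11 rose and 1 fell in SceI48A embryos, with medians of -0.07 and 0.15. *Ilp6*, an insulin-like peptide of the fat body, rose by 0.67 and 0.64 in the 2 comparisons (adjusted p = 0.00135 and 0.00277 from limma), while *Adh* was at -0.50 and -0.72 (adjusted p = 0.00298 and 0.0238). *Adh* in SceI48A embryos was no longer called without mutant replicate 3 or wild-type replicate 2, 3 or 4 (-0.75 to -0.63). Called in 1 mutant only were *Lsp1gamma*, which fell in Asx0 embryos (-0.35, adjusted p = 0.00498 from limma), and *Lsd-1*, which rose in SceI48A embryos (0.39, adjusted p = 0.00642 from limma). Both were called in 19 of 19 alternatives.

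The midgut differentiation list, from the tissue where *GATAe* acts, was the list with the most calls in Asx0 embryos. The lists were chosen with earlier results of these data known, so this place is not independent of them. Which of the listed genes depend on *GATAe* was not tested. Of 11 tested 6 fell and none rose, and the median was -0.31. They were the Jonah protease genes *Jon65Aiii* (-2.22) and *Jon65Aiv* (-1.07), the trypsin gene *lambdaTry* (-0.78), the maltase gene *Mal-A3* (-0.73), the integrin subunit gene *Itgbn* (-0.39) and the amylase gene *Amy-p* (-0.31). *Amy-p* was no longer called with the sex covariate (-0.25, adjusted p = 0.0542 from limma) or with the replicate block (-0.28, adjusted p = 0.0739 from limma). *Jon65Aiii* was at 7.02 in Asx0 embryos and 9.24 in wild type (adjusted p = 2.87e-06 from limma). In SceI48A embryos 1 of 11 fell, *Jon65Aiii* (-1.09, adjusted p = 0.0281 from limma, called in 12 of 19 alternatives and lost without SceI48A replicate 2 or any wild-type embryo, at -1.12 to -0.99), and the median was -0.21 with 0 of 11 above zero. A shared direction was not particular to this list, since 8 of 8 posterior spiracle genes were above zero in the same embryos. The mean log2 level over the 15 listed genes ran from 6.42 to 6.50 in Asx0 embryos, against 6.78 to 6.97 in wild type, and from 6.49 to 6.72 in SceI48A embryos, against 6.76 to 6.86 in wild type, so neither pair of groups overlapped. Such means also lay below wild type without overlap for the motor neuron, posterior spiracle and plasmatocyte lists in Asx0 embryos and the crystal cell list in SceI48A embryos, and above it for the muscle list in Asx0 embryos, out of 13 lists. The muscle means barely parted, with the lowest Asx0 embryo at 15.8326 and the highest wild-type embryo at 15.8319. *GATAe* itself was at -0.08 and 0.20 in the same embryos, and *Inx7*, a gap junction gene of the midgut, at -0.08 and -0.22, uncalled in both. The genes that specify the gut earlier, among them *fkh* and *bowl*, held 0 calls of 8 in either mutant by limma (adjusted p of *fkh* 0.917 and 0.0774). Reads of the Jonah and amylase genes may be shared with close relatives.

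**Figure D5:**
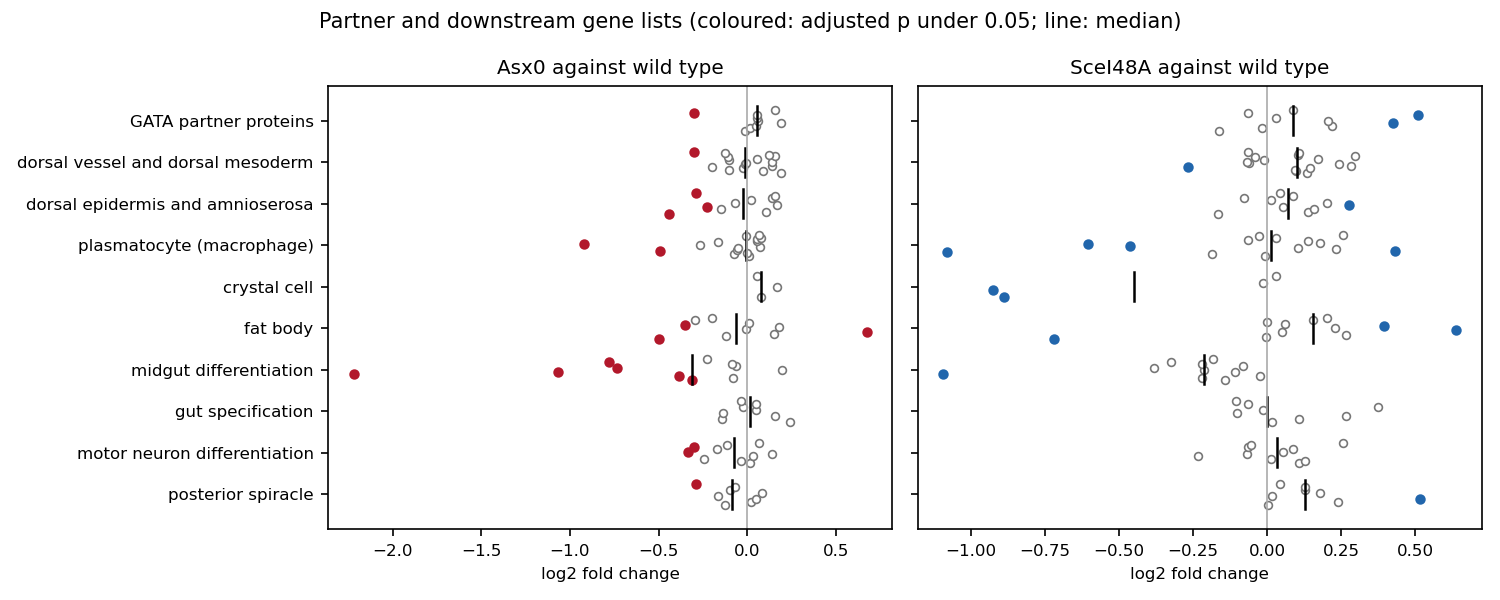
Log2 fold change of mutant over wild type (x axis) of the genes in 10 lists of partner and downstream genes, in Asx0 embryos (left) and SceI48A embryos (right), with x axes of unequal range. Each point is a gene, coloured where its adjusted p from limma is under 0.05, and the black line is the list's median, which for midgut differentiation is -0.31 in Asx0 and -0.21 in SceI48A embryos.

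Of 6 muscle genes none was called in either mutant (limma, medians 0.04 and -0.01), and of 5 glia genes none was called in Asx0 embryos and *Gs2* fell in SceI48A embryos (-0.63, adjusted p = 0.000428 from limma). The mean log2 value of cuticle protein genes, which rises late in embryogenesis, ran from 9.34 to 9.55 in Asx0 embryos, against 9.36 to 9.59 in wild type, and from 8.89 to 9.18 in SceI48A embryos, against 9.00 to 9.30 in wild type. Both ranges overlapped. The log2 values of any 2 embryos of a table correlated across genes at 0.993 to 0.999 in the Asx0 table and 0.989 to 0.999 in the SceI48A table. The tables give no read totals for the embryos, and the depth behind a value is unknown.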

How the data were processed

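Per the paper's methods, Salmon was run by the authors on release 6.35 transcripts, tximeta gave values per gene, and DESeq2 compared each mutant with its wild type. The submitters' processing notes name dm6, Salmon, DESeq2 and deepTools without versions. The NEBNext kit used does not mark strand. Each deposited table gives a log2 normalized read count per embryo and, as a signal, the authors' mean normalized count per gene over all its embryos. How the log2 values were normalized is not given in the sources used here. They appear shrunken at low counts, since the median SD within groups was 0.0563 and 0.0558 for mean counts of 10 to 50 and 0.0863 to 0.125 above, so fold changes of low genes are understated. The tables' columns of the authors' fold changes, standard errors, test statistics and p-values were not used.

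limma 3.58.1 (R 4.3.3), with a variance trend and Benjamini-Hochberg adjustment, was fitted to each table alone over genes with a mean count of at least 10. The SEs, intervals and p-values from limma use variances moderated toward a trend over all genes tested, not the spread of a gene alone. The fit was tested on simulated data. Exact two-sided permutation tests covered the 10 comparisons of single members. The members and lists were chosen with earlier results of these data known. Named in the text were the 5 GATA genes, up to 4 called and 2 uncalled abundant genes of each list in each table, called or nearest genes within 100 kb, and the 3 genes most like each member, with a few further called genes added after their values were seen. Alternatives were 2 filters, 2 pseudocounts, robust variances, array weights, quantile and median normalization, covariates from sex and cuticle genes, the replicate number as a block, and each embryo left out in turn. The split by sex markers, the calls of list genes under each alternative and the joined-exon length were added after seeing the data. Symbols were matched by identifier, with 32 IDs left without one. Positions are from Ensembl's annotation BDGP6.54, whose assembly is dm6.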

Additional observations from a re-analysis of the deposited data

Results flagged for a closer look

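*grn* in Asx0 replicate 1 was at 10.24, apart from the other 4 Asx0 embryos, which lay between 10.30 and 10.32. Its gap to the nearest of them was 0.725 of the group's range, above the critical value of 0.71. Chance alone sets about 1 in 20 groups apart in this way, and 15 groups of the 5 genes were examined. Replicate 1 is also the single Asx0 embryo with *msl-2* minus *Sxl* below -3. Without it the log2 fold change of *grn* was still past the threshold.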

How the results depend on the processing

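Of 190 values of the 5 genes under the alternatives, 188 kept their side of the threshold. The 2 others were *grn* in Asx0 embryos with the sex covariate (-0.24, adjusted p = 0.0580 from limma) and with the replicate block (-0.29, adjusted p = 0.0652); in the other 9 alternatives it was called, and without each embryo in turn it lay between -0.35 and -0.24 (adjusted p 0.00392 to 0.0482). No called value reversed, and 3 uncalled ones turned sign, *pnr* (0.03 without wild-type replicate 3) and *GATAe* (0.02 with the sex covariate) in Asx0 embryos and *grn* (-0.01 without wild-type replicate 1) in SceI48A embryos. Leaving out 1 embryo moved uncalled differences by over 1.5 times for *pnr* (0.07 to 0.28), *GATAd* (0.06 to 0.29) and *grn* (-0.01 to 0.09) in SceI48A embryos, and for *GATAe* (-0.14 to -0.02) and *pnr* (-0.09 to 0.03) in Asx0 embryos.

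The 1158 genes called in Asx0 embryos became 749 with the sex covariate and 654 with the replicate block, and 843 to 1028 without single embryos. The 776 called in SceI48A embryos became 1178 with array weights, 446 with the replicate block, and 390 to 658 without single embryos, the lowest without wild-type replicate 2 (459 without wild-type replicate 3, and 479 each without wild-type replicate 4 and SceI48A replicate 2). The cause of these shifts was not tested. Whether the replicate numbers pair the embryos is not stated and was not tested. Correlations of same-numbered deviations ran from -0.0890 to 0.156 in the Asx0 table and from -0.130 to 0.107 in the SceI48A table. Only for Asx0 replicate 1 was the wild-type embryo of the same number the closest match. Groups of 3 to 5 embryos and unknown depth limit what could be seen; the intervals of the uncalled members reach up to 0.49 on the log2 scale.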
